A study of Homo sapiens
Mus musculus with 8 samples.

Results

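Jurkat is a human leukemia line of CD4 T cells, and its transcriptome was compared here between a pair of cell preparations run on the same kit. The data were unique molecular identifier (UMI) counts per gene and cell barcode from 4 Chromium 3′ v3 libraries, numbered 21 to 24 in their titles, each made from a mixture of equal parts of the human lines Jurkat and TALL-104 and the mouse lines EL4 and IVA12. The study names no treatment of the lines, and only for TALL-104 does it list interleukin-2 in the growth medium. The study's sample summary places libraries 21 and 23 in one cell mixture and libraries 22 and 24 in another, and the question was which Jurkat genes differed between them. Libraries 21 and 22 targeted 3000 cells and libraries 23 and 24 targeted 6000 cells, so that both mixtures were run at both targets. The sources used here do not say whether the mixtures came from separate cultures or from the same ones. Each mixture was prepared once, so the 2 libraries of a mixture show the spread of loading and library construction, and p-values below measure only that spread. The mixture and anything else that went with it, such as the day of the run, cannot be told apart.

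Jurkat-like cells were selected on measured values. A barcode was kept with at least 3000 UMIs, over 80% of them on human genes, under 10% of the human UMIs on the 13 mitochondrially encoded (MT-) genes, and under 0.02% on NKG7, CST7 and CD8A together, which are expressed by cytotoxic cells such as TALL-104. This left 4799 cells of the 7005 found by the same rule in all 7 libraries used of the series. There were 1386 in library 21 and 2976 in library 23, against 118 in library 22 and 319 in library 24. Of barcodes that met the other limits, the limit on NKG7, CST7 and CD8A removed 212 and 468 in libraries 21 and 23. In libraries 22 and 24 it removed 76 and 151, and fewer UMIs reach this limit in cells of lower depth. These numbers follow from the selection and are given with no test. Levels are given below as UMIs per 1000000 human UMIs (CPM) summed over the Jurkat-like cells of a library, which held 28857569 (21), 59090465 (23), 1345063 (22) and 3511885 (24) human UMIs. A single UMI in library 22 therefore stood for 0.743 CPM.

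Each RNA has a usual place in the cell. MALAT1 and NEAT1 are long noncoding RNAs that are retained in the nucleus, at nuclear speckles and paraspeckles respectively, while messenger RNAs of ribosomal, metabolic and chaperone proteins are mostly cytoplasmic and the MT- messengers stay inside mitochondria. The share of MT- counts is therefore widely used as a quality measure of single cells.

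The values that selected the cells differed between the mixtures and are given as a description only. Without the mitochondrial limit, the median MT- share was 6.39% of 1425 cells in library 21 and 4.87% of 2988 in library 23, against 10.3% of 267 in library 22 and 10.6% of 807 in library 24. The limit kept 97.3% and 99.6% of the cells of libraries 21 and 23, and 44.2% and 39.5% of those of libraries 22 and 24. The limit thus fell near the middle of the cells in both libraries of one mixture and above nearly all cells of the other.

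**Figure D1:**
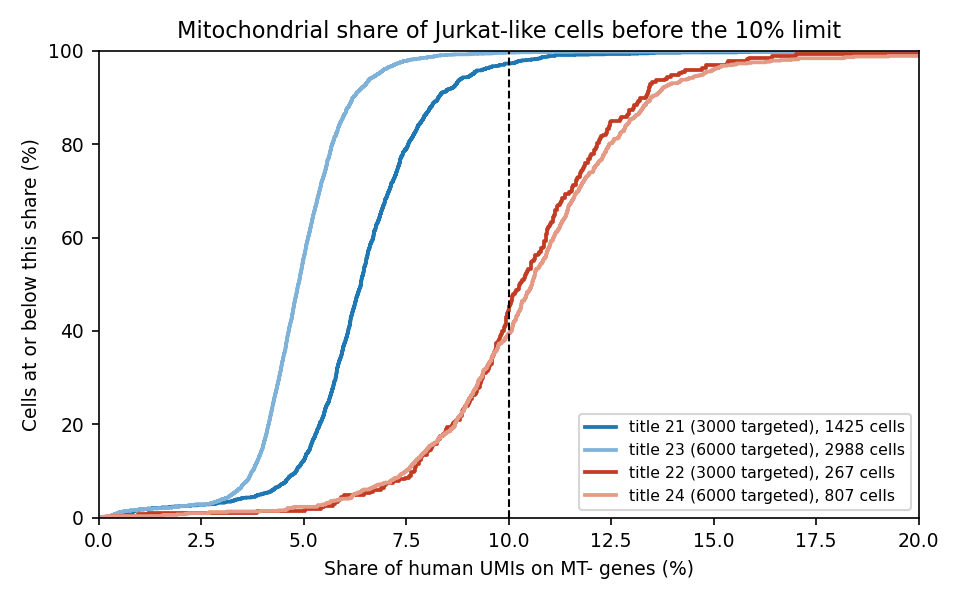
Cumulative share of Jurkat-like cells (vertical axis, %) at or below a given share of human UMIs on MT- genes (horizontal axis, %), 1 line per library, before the 10% limit (dashed). The lines of libraries 21 and 23 reach 97.3% and 99.6% at the limit and those of libraries 22 and 24 reach 44.2% and 39.5%.

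Just inside the limit, at a share of 9% to 10%, lay 41 and 11 cells of libraries 21 and 23 and 54 and 119 cells of libraries 22 and 24. Just outside it, at 10% to 11%, lay 23 and 4 against 49 and 152. Among the cells kept, the median MT- share was still 6.34% and 4.86% against 8.85% and 8.68%. The study itself used a limit of 10% for the first mixture and of 15% for the second.

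The cells kept also differed in depth, and this too was part of the selection. The median was 18302 UMIs per cell in library 21 and 18036 in library 23, against 11158 in library 22 and 10255 in library 24. After each cell was thinned at random to 3000 UMIs, the median number of genes per cell was 1466 and 1495 against 1509 and 1497, so that at equal depth the 4 libraries lay close together. The median share of mouse UMIs in these cells was 1.40% and 3.64% against 1.23% and 2.88%.

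The cells carried Jurkat genes in all 4 libraries. The 9 Jurkat markers, among them CD3D, LCK and TAL1, summed to 4144 and 4182 CPM in libraries 21 and 23 and to 3303 and 3121 CPM in libraries 22 and 24, with none at 0. The members went in both directions: ITM2A stood at 759 and 729 CPM against 408 and 368 CPM, TAL1 at 49.6 and 46.6 CPM against 88.5 and 86.6 CPM, and LCK at 396 and 408 CPM against 417 and 401 CPM. CD4, also among the 9, was nearly absent, although Jurkat is a line of CD4 T cells. It held 20 and 59 UMIs (0.693 and 0.998 CPM) against 5 and 13 UMIs (3.717 and 3.702 CPM). At most 4.24% of the cells of a library had a UMI of CD4. The 9 TALL-104 markers that the selection did not use summed to 119 and 105 CPM against 70.6 and 67.8 CPM, with 1 and 0 of them at 0 in libraries 21 and 23 and 3 and 2 at 0 in libraries 22 and 24. Most of the sum was GZMA (51.8 and 41.4 against 23.8 and 23.6 CPM) and CTSW (51.4 and 46.6 against 26.8 and 23.9 CPM), while PRF1 (3.57 and 4.10 against 6.69 and 4.56 CPM) and CCL5 (1.91 and 4.65 against 2.23 and 9.40 CPM) were not lower. The part of TALL-104 RNA in the differences below was not tested. Of the barcodes kept, 1 was shared by libraries 21 and 23 and none by any other pair.

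MALAT1 and NEAT1 were higher in the Jurkat-like cells of libraries 22 and 24. Both were picked for this difference, so their levels are a description with no test. MALAT1 stood at 4939 and 5980 CPM in libraries 21 and 23 and at 14445 and 16885 CPM in libraries 22 and 24. The ratio was 2.92 at a target of 3000 cells (22 over 21) and 2.82 at a target of 6000 cells (24 over 23). NEAT1 stood at 250 and 268 CPM against 632 and 795 CPM, with ratios of 2.53 and 2.97. Scaled by TMM, which is described below, the log2 difference was 1.13 (SE 0.11) for MALAT1 and 1.08 (SE 0.11) for NEAT1, smaller than the 1.52 and 1.47 given by total UMIs. The groups did not overlap for either RNA, as was the case for 80.4% of all genes tested, by the same CPM.

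The level per cell followed the sums. The median cell held 4266 and 5102 CPM of MALAT1 in libraries 21 and 23, with the middle 80% of cells between 1732 and 8597 CPM in library 21 and between 2000 and 9856 CPM in library 23. In libraries 22 and 24 the median cell held 12486 and 13808 CPM, and the 10th percentiles were 4887 and 4739 CPM. The 10th percentile of cells in libraries 22 and 24 thus lay near the median cell of libraries 21 and 23.

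RNA outside cells, taken from barcodes with under 100 UMIs, also held these RNAs. The human part of this free RNA held 9003 and 13307 CPM of MALAT1 in libraries 21 and 23 and 14380 and 15461 CPM in libraries 22 and 24. Free RNA was thus 1.82 and 2.23 times the level of the cells in libraries 21 and 23, and 0.995 and 0.916 times that in libraries 22 and 24. Human free RNA can come from Jurkat or TALL-104 cells, so these ratios are not of Jurkat RNA alone. NEAT1 in free RNA was 420 and 638 CPM against 812 and 1067 CPM. When the free RNA profile was subtracted, 7500 genes were called in place of 7459. The Jurkat-like cells of the other kits held 10248 CPM of MALAT1 in the 3′ v2 library and 3200 and 3465 CPM in the 5′ v1 libraries, values that also carry the difference in kit.

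**Figure D2:**
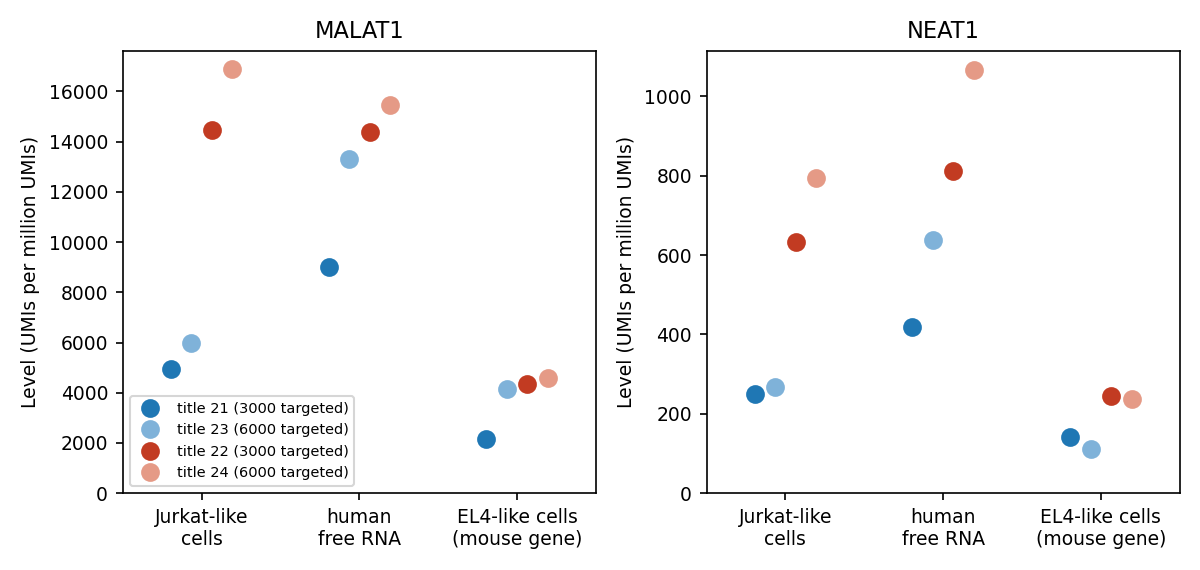
MALAT1 (left) and NEAT1 (right) in UMIs per 1000000 UMIs (vertical axes) in Jurkat-like cells, in human free RNA and in the mouse EL4-like cells of the same libraries, 1 point per library. In Jurkat-like cells libraries 22 and 24 lie at 14445 and 16885 for MALAT1, above 4939 and 5980 in libraries 21 and 23, and in EL4-like cells libraries 22 and 24 lie at 4350 and 4581 against 2168 and 4154, there over genes of one symbol in both species.

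MALAT1 was also compared among cells of like mitochondrial share. At an MT- share of 6% to 8% it stood at 4737 CPM in 701 cells of library 21 and 6471 CPM in 359 cells of library 23, and at 16284 CPM in 23 cells of library 22 and 17254 CPM in 85 cells of library 24. At 8% to 10% the values were 5386 CPM (151 cells) and 9173 CPM (32 cells), against 13652 CPM (82 cells) and 15842 CPM (201 cells). Within each of these ranges libraries 22 and 24 were higher. Below 4%, where they held few cells, this was not so throughout. At 2% to 4% library 22 stood at 3922 CPM (1 cell) and library 24 at 20033 CPM (6 cells), against 5886 and 6046 CPM. Within libraries 22 and 24 the cells at 10% to 12% held less MALAT1, at 12848 CPM (89 cells) and 12898 CPM (278 cells), than those at 6% to 8%. Among cells of 12000 to 16000 UMIs, a range of like depth, MALAT1 was 4168 and 4836 CPM against 14134 and 16880 CPM.

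**Figure D3:**
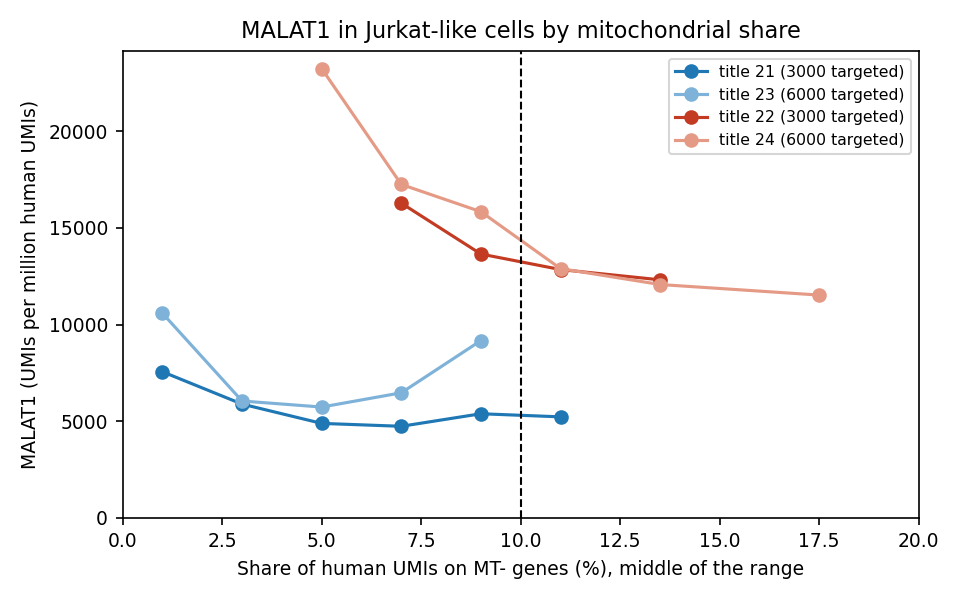
MALAT1 (vertical axis, UMIs per 1000000 human UMIs) summed over Jurkat-like cells within ranges of the MT- share (horizontal axis, %), 1 line per library, for ranges of at least 20 cells, with the 10% limit dashed. At 6% to 8% libraries 22 and 24 lie at 16284 and 17254, and libraries 21 and 23 at 4737 and 6471.

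Across the transcriptome the mixtures differed widely. Of 13339 genes tested with edgeR's quasi-likelihood test, 7459 (55.9%) were called at an adjusted p below 0.05, 3510 (26.3%) higher and 3949 (29.6%) lower in libraries 22 and 24. Of these, 1507 were over 2-fold higher and 1625 over 2-fold lower. Counts of list members below stand against these percentages, which are the shares over genes of all levels together. Direction also went with level, as given in the next paragraph, and lists were not compared with genes of like level. Of the genes called, 319 reached the minimum of the filter on low counts only in libraries 22 and 24 and 28 only in libraries 21 and 23, so that they had to differ. List counts and list medians below were not cleared of such genes. The log2 differences are given on the TMM scale, in which libraries are scaled so that the typical gene does not change, and their median over all genes was 0.03. Scaling by the total of human UMIs instead raised the median to 0.43, a shift of 0.39, and called 5746 genes (43.1%) higher and 2414 (18.1%) lower, 70.4% higher in place of 47.1%. All "higher" and "lower" below are relative to the TMM scale, and list counts by total UMIs stand against 43.1% higher and 18.1% lower.

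Genes were also ranked by mean CPM over the 4 libraries and divided into 5 groups of equal size. From the second lowest group upward the median log2 differences were 0.30, 0.05, −0.14 and −0.59. The 2668 genes of lowest level had a median of 0.56, but 577 of them reached the minimum of the filter in libraries 22 and 24 and in neither of the others, so that they had to differ. Over the 2037 genes of that group that did not pass through one group of libraries alone, the median was 0.32. In counts thinned to 3000 UMIs per cell, the median of the highest group was −0.46 and that of the second lowest 0.37, with too few genes of the lowest group left to read. With no filter the median over all genes was −0.26.

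Other nuclear noncoding RNAs were higher. All 4 tested members of the nuclear noncoding list beside MALAT1 and NEAT1 were higher, with a median log2 difference of 1.25. KCNQ1OT1, an imprinted antisense RNA that stays on chromatin, rose from 20.03 and 21.1 CPM in libraries 21 and 23 to 129 and 124 CPM in libraries 22 and 24 (log2 difference 2.22, SE 0.11, adjusted p = 9.5e-11). TUG1 rose from 37.6 and 41.9 CPM to 117 and 128 CPM (1.24, SE 0.11, adjusted p = 2.1e-08). MIAT (7.42 and 6.96 against 20.1 and 23.9 CPM) and FTX (4.09 and 6.53 against 11.2 and 15.9 CPM) were the other pair, and MEG3 had a single UMI in all. Of 19 messengers of speckle and paraspeckle proteins 2 were higher and 9 were lower, with a median of −0.19. The paraspeckle proteins NONO (log2 difference 0.33) and PSPC1 (0.34) rose, while the splicing factors SRSF7 (−1.47), SRSF3 (−1.44) and SRSF2 (−1.17) fell. With total UMIs as the scale, 7 of the 19 were higher and 6 lower.

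Messengers of protein folding were lower nearly throughout. Of 27 genes of cytosolic and mitochondrial chaperones tested, 24 were lower and none higher, with a median log2 difference of −1.43. HSP90AA1, the stress-inducible HSP90, stood at 3235 and 2981 CPM in libraries 21 and 23 and at 846 and 866 CPM in libraries 22 and 24 (log2 difference −2.25, SE 0.11, adjusted p = 5.3e-11). HSPA8, the constitutive HSP70, fell from 1488 and 1468 CPM to 390 and 418 CPM (−2.26, SE 0.10). HSPE1, the mitochondrial co-chaperone HSP10, fell from 1434 and 1260 CPM to 314 and 267 CPM (−2.62, SE 0.12). On the scale of total UMIs, 24 of the 27 were lower and 1 was higher.

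The endoplasmic reticulum list was lower for the most part, with 20 of 26 members lower and 3 higher and a median of −0.88. HSPA5, the chaperone BiP, fell from 267 and 292 CPM to 81.0 and 95.7 CPM (log2 difference −2.03, SE 0.12, adjusted p = 2.9e-10), and CALR (calreticulin) fell from 966 and 1024 CPM to 395 and 404 CPM (−1.71). EDEM1, which takes misfolded glycoproteins out for degradation, rose from 23.9 and 23.4 CPM to 113 and 108 CPM (1.82, SE 0.11, adjusted p = 4.9e-10). SEL1L, of the same degradation pathway, rose by 0.64 and HYOU1 by 0.37.

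Proteasome and mitochondrial genes of the nucleus were lower. Of 36 proteasome subunits, 35 were lower and none higher, with a median log2 difference of −1.51. The 20S core subunit PSMA3 fell from 538 and 525 CPM to 150 and 147 CPM (−2.23, SE 0.11, adjusted p = 7.6e-11). Of 74 nuclear genes of oxidative phosphorylation, 72 were lower and none higher (median −1.13), and of 74 mitochondrial ribosomal proteins, 72 were lower and none higher (median −1.31). CYCS, cytochrome c, stood at 449 and 427 CPM against 146 and 150 CPM (−1.96, SE 0.11, adjusted p = 2.3e-10). MRPL13, of the large mitochondrial subunit, stood at 180 and 172 CPM against 63.2 and 47.0 CPM (−2.13, SE 0.14, adjusted p = 6.3e-10). With total UMIs, 31 of the proteasome subunits, 64 of the oxidative phosphorylation genes and 66 of the mitochondrial ribosomal proteins were lower.

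The 13 MT- genes themselves took 6.23% and 4.86% of human UMIs in libraries 21 and 23 and 8.46% and 8.23% in libraries 22 and 24, in cells that had been limited on this share. Their log2 differences, given with no test, ran from −0.63 (MT-ATP8) to 0.57 (MT-ND6). MT-ATP8 stood at 43.1 and 250 CPM against 120 and 126 CPM, so that its groups overlapped and its difference rested on library 23. MT-CO1, of complex IV, stood at 8622 and 6761 CPM against 13116 and 13031 CPM. MT-CYB, of complex III, stood at 6729 and 4763 CPM against 7392 and 7095 CPM, but its log2 difference on the TMM scale was −0.06. On that scale the groups overlapped for MT-CYB, MT-CO2, MT-ATP6, MT-CO3, MT-ND3, MT-ND4L and MT-ND5 as well as MT-ATP8.

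The counts of these lists were also taken in cells of like mitochondrial share. Among cells with an MT- share of 3% to 7%, of which libraries 22 and 24 held 16 and 51, 22 of 27 chaperone genes, 31 of 36 proteasome subunits, 66 of 74 oxidative phosphorylation genes and 65 of 74 mitochondrial ribosomal proteins were lower, against 18.8% of all genes tested in these cells. In counts thinned to 3000 UMIs per cell the numbers were 24, 31 and 68, and 69 of the 73 mitochondrial ribosomal proteins that could be tested, against 23.5% of all genes. Of the 28 lists tested, 10 moved in their number of calls by over 1.5 times in cells of 3% to 7%, among them the p53 response (3 called of 18), the T-cell receptor (7 of 26), interferon genes (11 of 32), histones (13 of 55) and cytosolic ribosomal proteins (26 of 82). Calls over all genes fell as well, from 7459 of 13339 to 3681 of 12132. A list could thus move with this general fall alone.

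**Figure D4:**
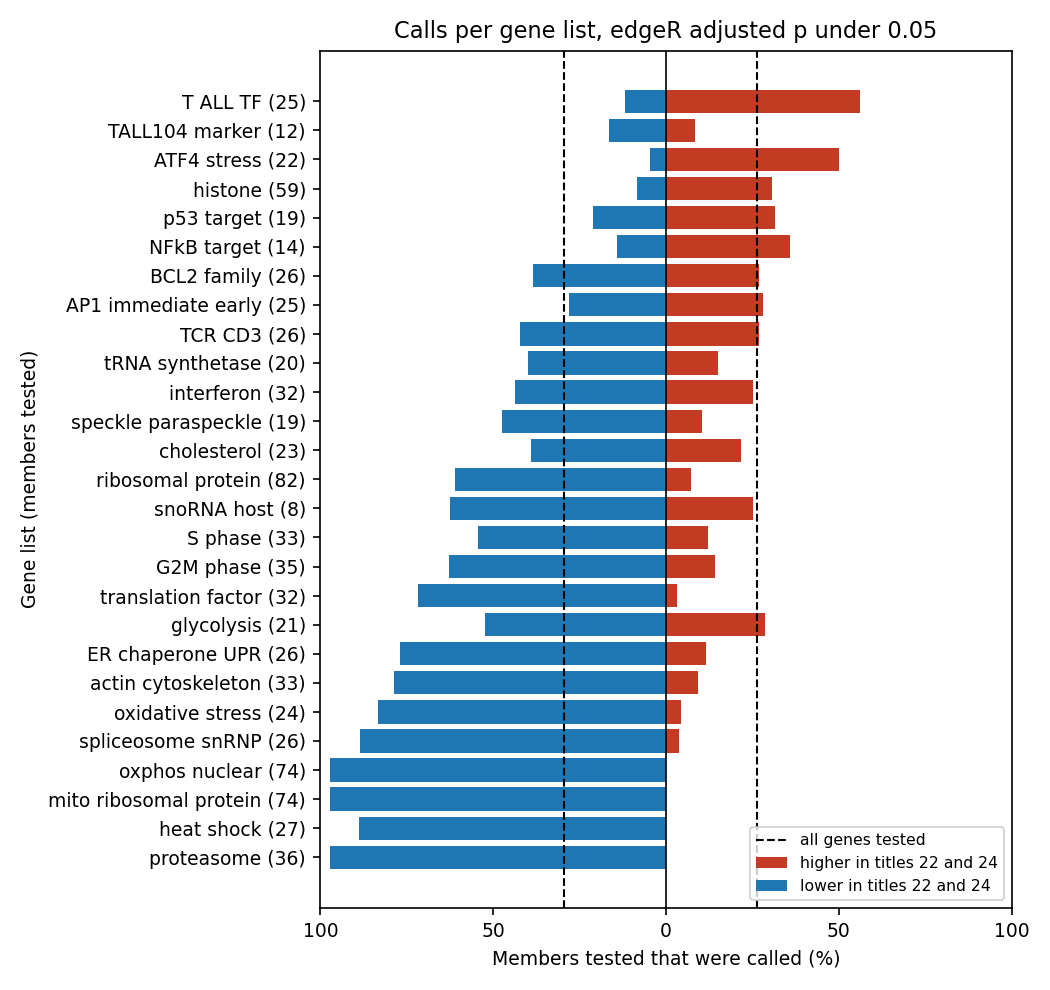
Share of tested list members (horizontal axis, %) called lower (left, blue) or higher (right, red) in libraries 22 and 24, 1 bar per gene list of at least 8 tested members, ordered by median log2 difference, with members tested in parentheses and the shares of all genes (29.6% lower, 26.3% higher) dashed. The proteasome list, with 35 of 36 lower, lies at the bottom.

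Ribosomal proteins of the cytosol took 22.5% and 23.0% of human UMIs in libraries 21 and 23 and 24.9% and 24.8% in libraries 22 and 24. On the TMM scale 50 of 82 were lower and 6 higher, with a median of −0.28. By total UMIs the median was 0.11, with 22 higher and 10 lower, so that their direction is set by the scaling. With 34 called without library 22 and 23 without library 24, the number of calls also moved when 1 library was left out. Here and below, leaving out a library leaves its group with 1, which is then assumed to vary like the other group, so that fewer calls can come from fewer libraries alone. RPS20 (795 and 906 against 1888 and 2042 CPM) rose by 0.82 on the log2 scale. RPL35 fell from 2425 and 2796 CPM to 1813 and 1932 CPM (−0.87). Ribosomal proteins have many processed copies in the genome, and how reads were divided among them was not examined.

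Of 32 translation factors 23 were lower and 1 higher, while by total UMIs 15 were lower and 6 higher. EIF5A fell from 1133 and 1087 CPM to 387 and 365 CPM (log2 difference −1.96, SE 0.11, adjusted p = 1.6e-10), while EEF2, the translocation factor of elongation, rose by 0.41 (773 and 707 against 1334 and 1251 CPM, adjusted p = 0.0022). Of 26 spliceosome genes 23 were lower and 1 higher, with a median of −1.10. SNRPD3, a core Sm protein, fell from 524 and 539 CPM to 184 and 206 CPM. The exception was PRPF8, which rose by 0.40.

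Genes of the amino acid response were mostly higher among those called. ATF4, the transcription factor that cells translate when amino acids or protein folding fail, rose from 149 and 166 CPM in libraries 21 and 23 to 419 and 423 CPM in libraries 22 and 24 (log2 difference 1.03, SE 0.10, adjusted p = 8.7e-08). Of the 22 tested genes of ATF4 and its targets 11 were higher and 1 was lower, and the median was 0.38. ASNS, asparagine synthetase, rose from 8.14 and 8.48 CPM to 63.2 and 57.5 CPM (2.45, SE 0.14, adjusted p = 2.6e-10). The amino acid transporter SLC7A5 rose from 41.1 and 42.6 CPM to 116 and 102 CPM (0.97, SE 0.11). Other members did not pass the test, among them DDIT3 (CHOP), at −0.02, and TRIB3, at 0.14. CTH, an enzyme of cysteine synthesis, was lower, from 5.30 and 5.11 CPM to 2.97 and 2.56 CPM. CTH, DDIT3 and TRIB3 were named after their values were seen.

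Among aminoacyl-tRNA synthetases 3 of 20 were higher and 8 lower. AARS, CARS and YARS rose by 1.11, 0.69 and 0.49 on the log2 scale, and FARSA (−1.53), FARSB (−1.25) and RARS (−1.24) fell. By total UMIs 10 were higher and 4 lower, near the shares of all genes on that scale.

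Of 25 transcription factors and regulators of T-cell leukemia, 14 were higher and 3 lower, with a median of 0.46 against 0.03 over all genes. RUNX1, a partner of TAL1 in this leukemia, rose from 134 and 146 CPM to 329 and 330 CPM (log2 difference 0.85, SE 0.10, adjusted p = 9.6e-07). IKZF2 (Helios) rose from 67.4 and 75.2 CPM to 187 and 208 CPM (1.09, SE 0.11), and NOTCH1, the receptor often mutated in this leukemia, from 20.1 and 19.7 CPM to 47.6 and 48.1 CPM (0.87, SE 0.13). MYB was lower on the TMM scale (−0.43), although its CPM of 148 and 166 against 148 and 157 overlapped before scaling.

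Genes of the T-cell receptor complex and its signaling were mixed, with 7 of 26 higher and 11 lower. CD3D stood at 1288 and 1367 CPM against 933 and 915 CPM (log2 difference −0.91, SE 0.10, adjusted p = 2.5e-07). Without library 24 only 10 members were called in place of 18. On the scale of total UMIs 12 were higher and 5 lower, again near the shares of all genes.

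Metabolic lists were divided. Of 21 glycolysis genes 11 were lower and 6 higher, while in cells with an MT- share of 3% to 7% 6 were lower and 7 higher. Of all 12132 genes tested in those cells, 2282 were lower and 1399 higher. LDHA, lactate dehydrogenase, fell from 1081 and 1129 CPM to 546 and 545 CPM (log2 difference −1.41, SE 0.10, adjusted p = 1.7e-09). The aldolase ALDOC rose from 6.51 and 7.09 CPM to 50.6 and 46.4 CPM (2.42, SE 0.15, adjusted p = 4.9e-10). Of 23 genes of cholesterol synthesis and uptake 5 were higher and 9 lower, and SREBF2, the transcription factor that drives them, rose from 26.9 and 26.7 CPM to 97.4 and 78.0 CPM (1.28). With total UMIs 9 were higher and 4 lower. Of 24 genes against oxidative stress 20 were lower and 1 higher, led by PRDX1, a peroxidase of the cytosol and the largest decrease among genes of at least 50 CPM. It stood at 1844 and 1783 CPM against 378 and 378 CPM (−2.65, SE 0.11, adjusted p = 1.1e-11).

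Genes of the cell cycle went in both directions. Of 35 genes of G2 and mitosis 22 were lower and 5 higher. MKI67, CENPE and ASPM, which act in mitosis, rose by 1.01, 0.73 and 0.71 on the log2 scale, while CDK1 (−1.67), the kinase of mitotic entry, and its partner CKS2 (−1.47) fell. Of 33 genes of S phase 18 were lower and 4 higher. By total UMIs 12 were higher and 16 lower in G2 and mitosis, and 12 higher and 10 lower in S phase.

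Of 59 histone genes tested 18 were higher and 5 lower, with a median of 0.38, and with an MT- limit of 15% the numbers were 18 and 12. The share called higher was near that of all genes. HIST1H1B, a linker histone, rose from 65.4 and 77.3 CPM to 395 and 478 CPM (log2 difference 2.23, SE 0.12, adjusted p = 1.1e-10), and HIST2H2AC from 17.6 and 21.9 CPM to 80.3 and 115 CPM (1.96, SE 0.14). The variant histones H3F3B (−1.37), H2AFZ (−1.24) and H2AFY (−0.95) fell. Histone genes of one class are nearly alike in sequence, and without library 23 the calls were 35, with 28 higher and 7 lower.

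Of 33 genes of the actin cytoskeleton 26 were lower and 3 higher, with a median of −0.96. ACTB, beta actin, fell from 6587 and 6302 CPM to 2795 and 2584 CPM (log2 difference −1.65, SE 0.11, adjusted p = 6.1e-10). The 3 that rose were MYH9 (1.33), a myosin heavy chain, TLN1 (talin, 0.96) and FLNA (filamin, 0.37).

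Lists of stress, death and immune signaling held calls in both directions. For immediate early genes the shares called were near those of all genes both ways (26.3% higher and 29.6% lower). The shares called higher of the apoptosis, p53 and interferon lists were also near that of all genes. Of the apoptosis list 7 of 26 were higher and 10 lower, among the latter BAX (105 and 99.8 against 70.6 and 76.6 CPM, log2 difference −0.86), and among the former XIAP (0.61) and BNIP3 (0.81). Of 19 genes of the p53 response 6 were higher and 4 lower, and MDM2 rose by 0.48. Of 25 immediate early genes 7 were higher and 7 lower, with MYC down from 282 and 245 CPM to 108 and 103 CPM (−1.73, SE 0.12, adjusted p = 1.4e-09). Without library 24 only 7 of these 25 were called. Of 14 NF-kB targets 5 were higher and 2 lower, and TNFAIP3 rose from 11.2 and 11.1 CPM to 29.0 and 52.7 CPM (1.59, SE 0.18). Of 32 interferon genes 8 were higher and 14 lower, and 12 were called without library 24 in place of 22. Of 8 host genes of small nucleolar RNAs 2 were higher and 5 lower, and without library 22 none was higher and 4 were lower. The lists of apoptosis, interferon and nucleolar RNA hosts had 12, 13 and 3 higher and 8, 6 and 2 lower when scaled to total UMIs. For interferon genes these were near the shares of all genes on that scale. Those of the p53 response, immediate early genes and NF-kB targets had 12, 10 and 8 higher and 2, 3 and 1 lower on that scale. Of a longer list of 24 TALL-104 genes, 12 could be tested, with a median of 0.40. The summed level of the list, with NKG7, CST7 and CD8A included, was lower, at 178 and 158 CPM against 120 and 118 CPM. GZMA (−1.37) and CTSW (−1.38) were lower and 9 did not pass the test. The remaining member, IL2RA, had 17 UMIs in all and passed the filter only through libraries 22 and 24, so its difference is not read.

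The genes that differed most were taken at a mean of at least 50 CPM and with the same sign at both targets. Among the 12 largest increases were, beside HIST1H1B, KCNQ1OT1, HIST2H2AC and EDEM1, MDM4, an inhibitor of p53, from 50.5 and 53.8 CPM to 245 and 248 CPM (log2 difference 1.85, SE 0.10), and ARPP21, from 71.6 and 88.5 CPM to 323 and 328 CPM (1.63, SE 0.11). ABLIM1, an actin-binding protein, SLFN5 and the centrosomal CEP128 rose by 1.67, 1.74 and 1.67. ANKRD36C, ANKRD36 and AC159540.1 rose by 2.09, 1.77 and 1.79. The ankyrin repeat genes among them are close copies, and how their reads were assigned was not examined. Among the 12 largest decreases, beside PRDX1, HSPE1, HSPA8, HSP90AA1 and PSMA3, were NOP16 (96.7 and 91.5 against 23.0 and 22.2 CPM, −2.46), EBNA1BP2 (245 and 245 against 68.4 and 59.8 CPM, −2.35) and RPF2 (85.8 and 95.5 against 23.8 and 25.9 CPM, −2.24). The exon junction protein MAGOHB (−2.48), the nucleotide kinase NME1 (−2.36), ID1 (−2.36), an inhibitor of basic helix-loop-helix factors, and AIMP2 (−2.21), of the synthetase complex, also fell. NME1 overlaps NME1-NME2, which stood at 28.8 and 217 CPM against 49.1 and 46.7 CPM. How reads of the overlap were assigned was not examined.

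**Figure D5:**
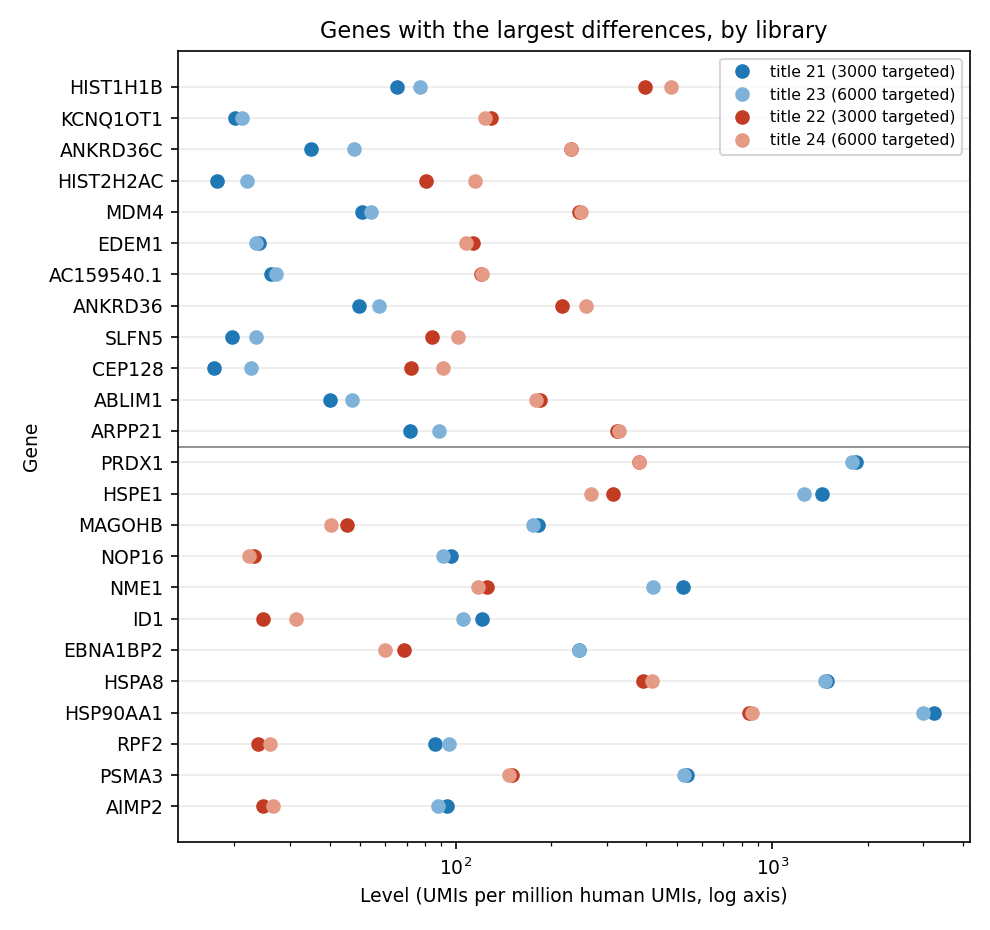
Levels of the 12 genes that rose most (above the line) and the 12 that fell most (below it), in UMIs per 1000000 human UMIs on a log axis, 1 point per library. The genes were chosen for their difference, and the points of libraries 22 and 24 lie on one side of those of libraries 21 and 23, as for 80.4% of all genes and as for PRDX1 with 378 and 378 against 1844 and 1783.

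The mouse EL4 cells of the same 4 libraries gave a second view of the mixtures, with 1519 and 2776 EL4-like cells in libraries 21 and 23 and 615 and 1337 in libraries 22 and 24. In these cells Malat1 stood at 2168 and 4154 CPM in libraries 21 and 23 and at 4350 and 4581 CPM in libraries 22 and 24, over genes of one symbol in both species. The log2 difference was 0.11 (SE 0.24, edgeR adjusted p = 0.763), and it turned to −0.28 without library 21 and to 0.68 without library 23. Scaled by total UMIs it was 0.50 (adjusted p = 0.071). Neat1 rose in EL4-like cells from 142 and 111 CPM to 244 and 237 CPM (0.55, SE 0.10, adjusted p = 0.0014), and by total UMIs the difference was 0.93. The Jurkat-like change exceeded that of EL4-like cells by 0.96 (SE 0.18) for MALAT1 and 0.53 (SE 0.15) for NEAT1 on the log2 scale. These values come from the fit of both lines described below. They are given with no p since both RNAs were picked for their change in Jurkat.

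A fit of both lines with the library as a block called 3474 of 11550 genes (30.1%) as changed differently between the lines, some of them without counts in one line. Of 8834 genes that passed the filter on low counts in each line, 2789 (31.6%) were higher and 3034 (34.3%) lower in the EL4-like cells of libraries 22 and 24. Among these the fit of both lines called 3255 genes (36.8%) as changed differently, with the Jurkat-like change above that of EL4-like cells for 1546 (17.5%) and below it for 1709 (19.3%). Of 36 proteasome subunits 33 were lower in EL4-like cells, with a median of −0.82, and the Jurkat-like change was called below that of EL4-like cells for 24 of them. Of 72 nuclear genes of oxidative phosphorylation 69 were lower and none higher in EL4-like cells (median −0.73). The Jurkat-like change was called below that for 29 and above it for 5. Of 74 mitochondrial ribosomal proteins 68 were lower and 1 higher in EL4-like cells (median −0.60). For 41 the Jurkat-like change was called below that. The 2 nuclear noncoding RNAs tested in both lines beside MALAT1 and NEAT1 were higher in EL4-like cells too (median 1.05). For 1 of them the Jurkat-like change was called above that of EL4-like cells. Of 24 chaperone genes 16 were lower and 3 higher in EL4-like cells (median −0.48), and for 21 the Jurkat-like change was called below it. The changes within a line come from a fit of that line alone. Over these genes HSP90AA1 had −2.10 in Jurkat-like cells and −0.15 in EL4-like cells (SE 0.08, edgeR adjusted p = 0.13).

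Of 20 genes of ATF4 and its targets, 5 were higher and 7 lower in EL4-like cells, with a median of 0.07, and the Jurkat-like change was called above that of EL4-like cells for 11 and below it for none. ASNS had a log2 difference of 2.60 in Jurkat-like cells and of −0.72 (SE 0.07) in EL4-like cells. In the fit of both lines these changes differed by 3.32 (SE 0.13). This is given with no p, since the gene was named for its change in Jurkat. For 16 of 22 cholesterol genes the Jurkat-like change was called above that of EL4-like cells, in which 17 were lower and 4 higher. Of 81 ribosomal proteins 64 were lower and 1 higher in EL4-like cells, and the Jurkat-like change was called above it for 49 and below it for 3.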

How the data were processed

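The authors deposited raw UMI counts, 1 table of genes by barcodes per library. Before counting, they had reduced the reads with seqtk, by a factor that brings the cells of highest mRNA content to a common depth, and they then used Cell Ranger (3.0.2 in the file headers) and STAR on a combined hg19 and mm10 reference. All barcodes were kept. Downsampling by this factor levels reads of the richest cells and not the totals of libraries. The 3′ v3 libraries held 38116299 UMIs (22) to 251164949 UMIs (23), with 1836 (22) to 13415 (23) barcodes of at least 1000 UMIs.

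UMIs of Jurkat-like cells were summed per library. edgeR 4.0.16 (filterByExpr, TMM, quasi-likelihood test, Benjamini-Hochberg adjustment over 13357 genes) compared libraries 22 and 24 with 21 and 23, with DESeq2 1.42.0 as an alternative, in R 4.3.3. The 16 genes that selected cells, MALAT1 and NEAT1 were left out of calls. Cells were EL4-like by mouse markers, and the 2 lines were fitted with the library as a block. No doublets were called. Mixed-species barcodes were removed only by the 80% rule, and cells over 3 times the median UMIs were left out as an alternative. Groups were set by the numbers in the titles, since the labels do not name the mixtures.

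Named genes were, per direction, the 12 with the largest log2 difference among those called with a mean of at least 50 CPM and the same sign at both targets, and per list up to 3 per direction with a mean of at least 20 CPM. A few genes that met this rule are not reported here. The members and the 29 gene lists were chosen with earlier results of these data known. Genes are named as deposited, and no gene positions or sequences were used here.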

Additional observations from a re-analysis of the deposited data

Results flagged for a closer look

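The change between the mixtures differed between the lines for 3474 of 11550 genes (30.1%) in the fit of both lines with the library as a block (edgeR adjusted p below 0.05). This was marked by the test of the difference itself. Of these genes 1181 had the Jurkat-like change above that of EL4-like cells, and this fit included genes without counts in one line. Over genes that passed the filter in each line, a setting chosen after seeing the data, the count was 3255 of 8834, with 1546 above. Without library 24 the count over all genes was 1514.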

How the results depend on the processing

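Over 24 other settings between 1899 and 8685 genes were called. Of the 7459 calls, 1822 kept their direction and stayed called with the 5% limit, 2064 at an MT- share of 10% to 20%, 3551 at 3% to 7%, 3862 with over 98% human UMIs, 4423 in thinned counts, 4919 without library 24, 5775 with DESeq2, 5924 when scaled to total UMIs and 7438 with the targeted number of cells as a replicate block, which called 7910 and changed no call of a named gene. Leaving out 1 library gave 5148 to 7183 calls, 524 to 668 calls in lists, 131 to 142 of the 143 genes that met the naming rule, MALAT1 at 0.99 to 1.28 and NEAT1 at 0.87 to 1.18, and 1514 to 3663 genes that differed between the lines. Fewer genes were called with an MT- limit of 5% (1899, and 375 in lists), in cells with an MT- share of 3% to 7% (3681), with over 98% human UMIs (3935, resting on 2 cells of library 23), in thinned counts (4632) and in cells with an MT- share of 10% to 20% (2231, and 369 in lists), which was a setting chosen after seeing the data, as were the limits of the study, the absence of NKG7, CST7 and CD8A, the subtraction of free RNA and the removal of cells over 3 times the median UMIs. With no filter 7251 of 21196 genes were called, and 37.5% of them were higher.

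The log2 difference of MALAT1 was 1.52 with total UMIs, 1.56 with equal weight per cell and 0.61 with over 98% human UMIs. That of NEAT1 was 1.47, 1.54 and 0.38 under these, 1.54 with the 5% limit, 1.48 at 3% to 7%, 1.34 thinned and 0.61 at 10% to 20%. The values with total UMIs and with equal weight per cell were not scaled by TMM. They therefore compare with each other and not with the rest. Cells of libraries 21 and 23 numbered 1836 with the 5% limit, 1500 at 8000 to 16000 UMIs, 1224 with over 98% human UMIs, 2013 with no UMI of NKG7, CST7 or CD8A and 45 at 10% to 20%. Those of libraries 22 and 24 numbered 23, 259 and 162 under the first 3 of these, 67 at 3% to 7%, 1034 with the 15% limit or the limits of the study and 1074 with no limit. In EL4-like cells Malat1 was −0.28 without library 21 and 0.68 without library 23, with a range of −0.28 to 0.68, and Neat1 ranged from 0.39 to 0.74. The line difference ranged from 0.66 to 1.33 for MALAT1 and from 0.36 to 0.81 for NEAT1.

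Some named genes changed sign. With total UMIs SNHG8 was 0.076 and HES4 0.049. RPL17 ranged from −1.55 without library 21 to 0.53 without library 23, and it was 0.41 at 10% to 20%, where SNHG7 was 0.64 and SNHG8 0.14. With the 5% limit, which left 4 and 19 cells of libraries 22 and 24, PSPC1 was −0.18, SNHG15 0.13, SNHG7 0.37, JUNB 0.91, FDXR 0.67, XIAP −0.11, NSDHL 0.040, HES4 0.24 and FLNA −0.048. FDXR was 0.039 at 3% to 7% and ZFAS1 −0.081 with over 98% human UMIs. The causes were not tested.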

Other observations

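Over 3238 genes of at least 50 CPM, the SD of the log2 ratio between libraries was 0.19 for 23 over 21 and 0.18 for 24 over 22. A difference over 1 on the log2 scale was seen for 8 genes between libraries 21 and 23 and for none between 22 and 24. RPL17 stood at 129 CPM in library 21 and 572 CPM in library 23, against 225 and 254 CPM in libraries 22 and 24. NBEAL1 stood at 48.9 and 207 CPM against 146 and 177 CPM, and NME1-NME2 at 28.8 and 217 CPM against 49.1 and 46.7 CPM. HIST1H2AJ (12.4 and 56.8 CPM) and HIST1H2AM (15.9 and 62.6 CPM) also differed between libraries 21 and 23. RPL17, with overlapping groups, was lower in libraries 22 and 24 (−0.92) and had the opposite sign without library 23 (0.53). These genes were named after their values were seen.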
